A study of Homo sapiens with 14 samples.

Results

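OVCAR-3 and CAOV3 are human ovarian cancer cell lines, and their control states were set against each other by RNA sequencing: 3 OVCAR-3 libraries against 3 CAOV3 libraries, all from cells kept for 72 h with GSK-J5. These 6 libraries, which sit in 4 GEO samples, were taken by line, agent and time from the labels, out of 22 libraries in 14 samples. The whole series also holds SKOV3, another ovarian cancer line, and treats the lines with GSK-J4, a cell-permeable inhibitor of the H3K27 demethylases KDM6A and KDM6B. GSK-J5 is its isomer without that activity, and so serves as the control compound.

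The OVCAR-3 group was grown in RPMI 1640 and exposed to 2.5 µM GSK-J5 for 72 h. The CAOV3 group had the same agent, dose and time but was grown in DMEM/F12, so line and medium cannot be told apart. The protocol of the second library set also gives 20% serum for OVCAR-3 and 10% for CAOV3, which adds serum to what moves with the line. In each line, replicates 1 and 2 belong to the first library set and replicate 3 to the second, and the sets used different RNA kits. Stripped medium is named in the protocol of the first set alone. Each group is 1 established line, so the comparison is between these cultures and not between tumour types, and nothing in the labels says that the replicates were separate cultures.

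High-grade serous ovarian cancer is thought to arise from the secretory epithelium of the fallopian tube, and such tumours usually keep the Müllerian transcription factor PAX8, WT1 and the surface mucin MUC16, which carries the antigen CA125. OVCAR-3 and CAOV3 are both widely used as high-grade serous models. Genes held under H3K27 trimethylation by Polycomb, the mark that KDM6 enzymes remove, include many developmental regulators whose on or off state marks a cell's lineage.

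The 6 libraries held between 24141175 and 33919587 counts, and the floor of 3 counts lay between 0.0899 and 0.131 CPM, the count divided by the TMM-scaled library size in megareads. The first principal component separated the lines and held 86.8% of the variance. The second held 6.47% and set OVCAR-3 replicate 3 at 72.99, against -38.9 and -38.5 for OVCAR-3 replicates 1 and 2. Mitochondrial transcripts made up 1.04% of counts in OVCAR-3 replicate 3, 0.766% and 0.461% in the other OVCAR-3 libraries, and 1.07% to 1.35% in CAOV3. OVCAR-3 replicate 3 was the only OVCAR-3 library of its set, so its distance from the others cannot be told apart from the set, and counts that move without it are given beside the result.

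Most expressed genes differed between the lines. Of 16897 genes tested, 5266 were higher in OVCAR-3 and 5714 were lower, at an adjusted p under 0.05 in edgeR's quasi-likelihood test with the library set as a covariate. This is 65.0% of the tested genes, 31.2% higher and 33.8% lower, and every count of a gene group below has to be read against that background. Without OVCAR-3 replicate 3 the counts were 5620 higher and 6033 lower of 17672 tested. The median log2 fold change (OVCAR-3 over CAOV3) of all tested genes was -0.03, and the median size among the called genes was 1.27 on the log2 scale. More than 8-fold differences were found for 1008 genes higher and 1241 lower, and more than 100-fold differences for 374 and 350. Both library sets gave the same sign for 10935 of the 10980 called genes, and 341 called genes had libraries that overlapped between the lines. Both sets entered the fit that made the calls, so the agreement in sign is not an independent check. Of the 16897 tested genes, 5777 had every OVCAR-3 library above every CAOV3 library and 6074 had every one below. Libraries that stood apart were therefore the usual state in these data.

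A gene was counted as switched when its mean was under 0.5 CPM in 1 line and at least 5 CPM in the other. On this rule, 231 genes were on in OVCAR-3 alone and 280 in CAOV3 alone, of which 186 and 244 were protein-coding. The gene furthest up was CDH6, a kidney and Müllerian-type cadherin, with 1425, 1475 and 1058 CPM in the OVCAR-3 libraries and 0 counts in all 3 CAOV3 libraries, at least 38260-fold higher (3 counts over the group; adjusted p = 1.65e-07). TMEM100, a membrane protein of vascular and lung development, had 310, 319 and 176 CPM in OVCAR-3 and 0 counts in CAOV3, at least 7805-fold higher. At the other end, DMBT1, a secreted scavenger receptor of mucosal surfaces, had 0 counts in OVCAR-3, against 614, 592 and 1174 CPM in CAOV3, at least 20625-fold lower. Placental alkaline phosphatase, ALPP, likewise had 0 counts in OVCAR-3, against 634, 678 and 956 CPM in CAOV3, and NNMT, the nicotinamide methyltransferase, 0 counts against 561, 523 and 616 CPM. These are on and off states rather than shifts in level, and every library of a line was on the same side.

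**Figure D1:**
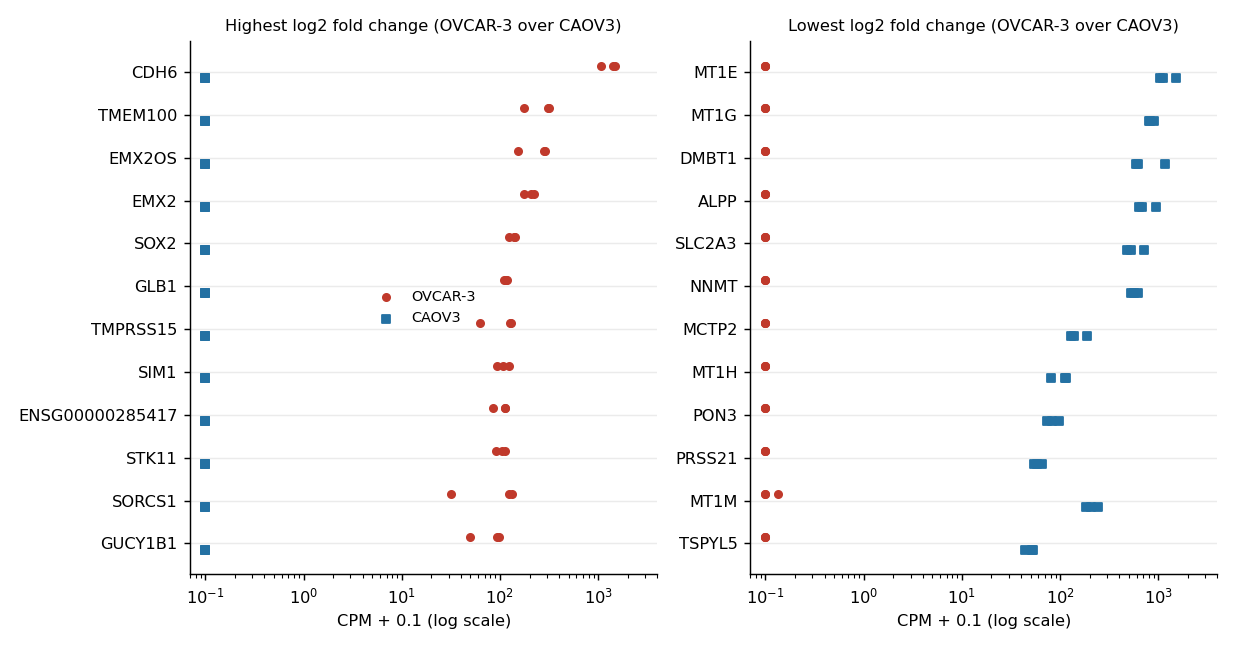
Levels of the 12 highest and the 12 lowest genes named by the rule for the largest fold changes, as CPM + 0.1 on a log axis, with 1 point per library, OVCAR-3 as circles and CAOV3 as squares. In each gene the points of the lines lie apart, and many genes have all libraries of the other line at 0 counts, as CDH6 does in CAOV3 and MT1E in OVCAR-3.

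The set of the largest absolute differences in CPM held other kinds of genes. SPON1, an extracellular matrix protein, had 4187, 4474 and 3393 CPM in OVCAR-3 and 663, 659 and 1094 CPM in CAOV3 (log2 fold change 2.36, SE 0.21, adjusted p = 4.06e-05). PLD3, a lysosomal exonuclease, averaged 3664 ± 379 CPM in OVCAR-3 and 425 ± 39.2 CPM in CAOV3 (SD, n = 3 each). SPOCK2, a matrix proteoglycan, averaged 1175 ± 342 CPM in OVCAR-3 and 6481 ± 111 CPM in CAOV3. The ribosomal protein genes RPS16, RPS3 and RPS2 were also in this set, with log2 fold changes of 2.29, 1.59 and 1.29. RPS16 lies in a window of chromosome 19 described further on.

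Ovarian and Müllerian lineage genes were mostly higher in OVCAR-3: 16 of 20 tested members were higher and 2 lower, with a median log2 fold change of 3.23. PAX8 had 655, 637 and 691 CPM in OVCAR-3 and 35.1, 40.3 and 39.6 CPM in CAOV3, a log2 fold change of 4.11 (SE 0.09, adjusted p = 1.02e-07). WT1, a transcription factor of the gonad and kidney, had 212, 208 and 80.8 CPM in OVCAR-3 and 0, 0 and 0.131 CPM in CAOV3, the last being 3 counts. The ratio of the summed counts, scaled by library size, was 4883, with a counting interval of 1670.5 to 23681. The 3 libraries of each line stood well apart for both genes, although OVCAR-3 replicate 3 had the lowest WT1 of its line.

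MUC16 had 434, 549 and 289 CPM in OVCAR-3 and 9.85, 11.5 and 9.88 CPM in CAOV3 (log2 fold change 5.31, SE 0.18, adjusted p = 3.75e-07). EMX2, a homeobox factor needed for the urogenital tract, had 224, 208 and 177 CPM in OVCAR-3 and 0 counts in CAOV3. Its antisense transcript EMX2OS was among the 12 highest genes too, but no source used here states whether the counting used strand, and without it reads of the pair cannot be told apart. SOX17, a factor of the Müllerian duct, was 8.99-fold higher, and CRABP2, which carries retinoic acid to the nucleus, had a log2 fold change of 6.37. SOX2, a pluripotency and foregut factor, had 143, 138 and 124 CPM in OVCAR-3 and 0 counts in CAOV3, at least 3902-fold higher.

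The clinical serum marker WFDC2, known as HE4, did not pass the test, with 343, 323 and 334 CPM in OVCAR-3 and 363, 320 and 333 CPM in CAOV3 (log2 fold change -0.02, adjusted p = 0.816). Mesothelin, a surface antigen, was slightly lower in OVCAR-3, with a MSLN log2 fold change of -0.30 (adjusted p = 0.0366). That call was lost without OVCAR-3 replicate 2 or 3 (adjusted p = 0.0776 and 0.0859) and without CAOV3 replicate 1 or 3 (0.0822 and 0.0826). FOLR1, the folate receptor, averaged 40.8 ± 16.5 CPM in OVCAR-3 and 58.8 ± 5.15 CPM in CAOV3 (SD, n = 3 each) and did not pass (adjusted p = 0.067). CAOV3 therefore held transcripts of PAX8, MUC16, WFDC2 and MSLN, with WT1 at or near the floor. In bulk libraries, fewer cells that carry a transcript and less of it per cell cannot be told apart.

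Both lines carried epithelial transcripts, and most of this group was higher in OVCAR-3: 21 of 30 tested members higher, 7 lower, median log2 fold change 0.64. CDH1, encoding E-cadherin, had 285, 300 and 280 CPM in OVCAR-3 and 217, 199 and 210 CPM in CAOV3 (log2 fold change 0.46, SE 0.07, adjusted p = 0.000948). That call was lost without replicate 2 of both lines (adjusted p = 0.0552) and in the fit of the 9 GSK-J5 libraries of 3 lines (adjusted p = 0.495). GRHL2, a transcription factor that maintains epithelia, had a log2 fold change of 1.56 and ESRP1, an epithelial splicing regulator, of 0.63. EPCAM, the epithelial adhesion molecule, went the other way at -0.53.

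A surface gene of the same group was far lower in OVCAR-3: the mucin MUC1 had 59.9, 52.3 and 156 CPM in OVCAR-3 and 1542, 1555 and 2141 CPM in CAOV3 (log2 fold change -4.45, SE 0.22, adjusted p = 1.96e-06). So the lines were apart in opposite directions for the mucin antigens, with MUC16 higher and MUC1 lower in OVCAR-3. Of 6 tested mucins, 3 were higher and 3 lower.

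Mesenchymal genes were mostly lower in OVCAR-3, with 17 of 24 lower, 2 higher and a median log2 fold change of -2.58. SPARC, a secreted matrix protein, had 2.23, 2.60 and 4.90 CPM in OVCAR-3 and 696, 653 and 659 CPM in CAOV3 (-7.73, SE 0.24, adjusted p = 2.36e-07). The receptor kinase AXL averaged 1.61 ± 0.794 CPM in OVCAR-3 and 286 ± 12.3 CPM in CAOV3 (SD, n = 3 each). COL5A1, a fibrillar collagen chain, had 3 counts over the OVCAR-3 libraries and 57.1, 50.9 and 38.5 CPM in CAOV3, a ratio of 1361 with a counting interval of 465 to 6604. These genes were on in every CAOV3 library and at no more than 4.90 CPM in any OVCAR-3 library. COL5A2, another collagen chain of the list, went the other way. It averaged 36.5 CPM in OVCAR-3 and 3.43 CPM in CAOV3 (log2 fold change 3.41, adjusted p = 4.39e-06).

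The list's name fits CAOV3 only in part. Vimentin, VIM, the intermediate filament used as the standard mesenchymal marker, was lower in OVCAR-3 at 0.531, 0.795 and 3.18 CPM, but CAOV3 held just 6.28, 7.61 and 8.27 CPM, against a mean of 1172 CPM in the matching SKOV3 libraries. Fibronectin, FN1, averaged 28.0 ± 19.8 CPM in OVCAR-3 and 174 ± 22.4 CPM in CAOV3 (SD, n = 3 each). CDH2, encoding N-cadherin, was higher in OVCAR-3, at 8.03 ± 0.742 CPM against 5.27 ± 1.24 CPM in CAOV3 (CDH2 log2 fold change 0.62, adjusted p = 0.0367), a call that was lost without OVCAR-3 replicate 1 or 2 (adjusted p = 0.119 and 0.154) or CAOV3 replicate 1 (0.1002). Summed over the mesenchymal list, the OVCAR-3 libraries had 256, 241 and 290 CPM and the CAOV3 libraries 1860, 1798 and 1829 CPM.

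Adhesion and junction genes were divided between the lines. Of 20 tested claudin and tight junction genes, 8 were higher and 6 lower. CLDN1 had 63.0, 57.5 and 83.0 CPM in OVCAR-3 and 0 counts in CAOV3, at least 1949-fold higher, and CLDN6, a claudin of embryonic epithelium, averaged 181 ± 11.6 CPM in OVCAR-3 and 0.187 ± 0.220 CPM in CAOV3 (SD, n = 3 each). The ovarian cancer claudins CLDN3 and CLDN4 were near level: CLDN3 did not pass the test (log2 fold change 0.15, adjusted p = 0.14) and CLDN4 had 0.49.

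Among 16 tested keratins, 6 were higher and 7 lower. Of the simple-epithelial keratins, KRT8 was at a log2 fold change of 0.92, KRT19 at 1.10 and KRT7 at -1.11. For KRT7 the difference was -1.48 in the first library set and -0.34 in the second. KRT81, a hair keratin, had 0.0708, 0.289 and 0.613 CPM in OVCAR-3 and 1211, 1023 and 820 CPM in CAOV3 (-11.62, SE 0.37, adjusted p = 2.6e-07). KRT81 shares reads with its near copy KRT86, which averaged 0.887 ± 0.826 CPM in OVCAR-3 and 9.09 ± 2.55 CPM in CAOV3 (SD, n = 3 each), so the division of counts between them is uncertain.

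Integrins and matrix genes leaned to CAOV3. Of 16 tested integrins, 9 were lower in OVCAR-3 and 3 higher, with a median log2 fold change of -0.94. ITGA3, the alpha chain of a laminin receptor, had 190, 186 and 211 CPM in OVCAR-3 and 3340, 3177 and 3730 CPM in CAOV3 (-4.13, SE 0.09, adjusted p = 8.91e-08). ITGB4, the hemidesmosome integrin, had a log2 fold change of -4.00, and LAMA3, a chain of its ligand laminin-332, of -4.48. ITGA6, which pairs with ITGB4, did not pass the test, at 48.2 ± 10.97 CPM in OVCAR-3 and 56.1 ± 3.39 CPM in CAOV3 (SD, n = 3 each). Over collagens and laminins, 18 of 34 were lower and 9 higher. The hyaluronan receptor CD44 averaged 2.79 ± 1.43 CPM in OVCAR-3 and 107 ± 12.2 CPM in CAOV3. The list of classical cadherins and protocadherins had 11 of 20 higher and 4 lower (13 and 2 without OVCAR-3 replicate 3). Not all protocadherins leaned that way. The neighbours PCDHA6, PCDHA7 and PCDHA10 had means of 0.012 to 0.44 CPM in OVCAR-3 and 3.07 to 6.68 CPM in CAOV3. A protocadherin cluster described further on was also lower in OVCAR-3.

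**Figure D2:**
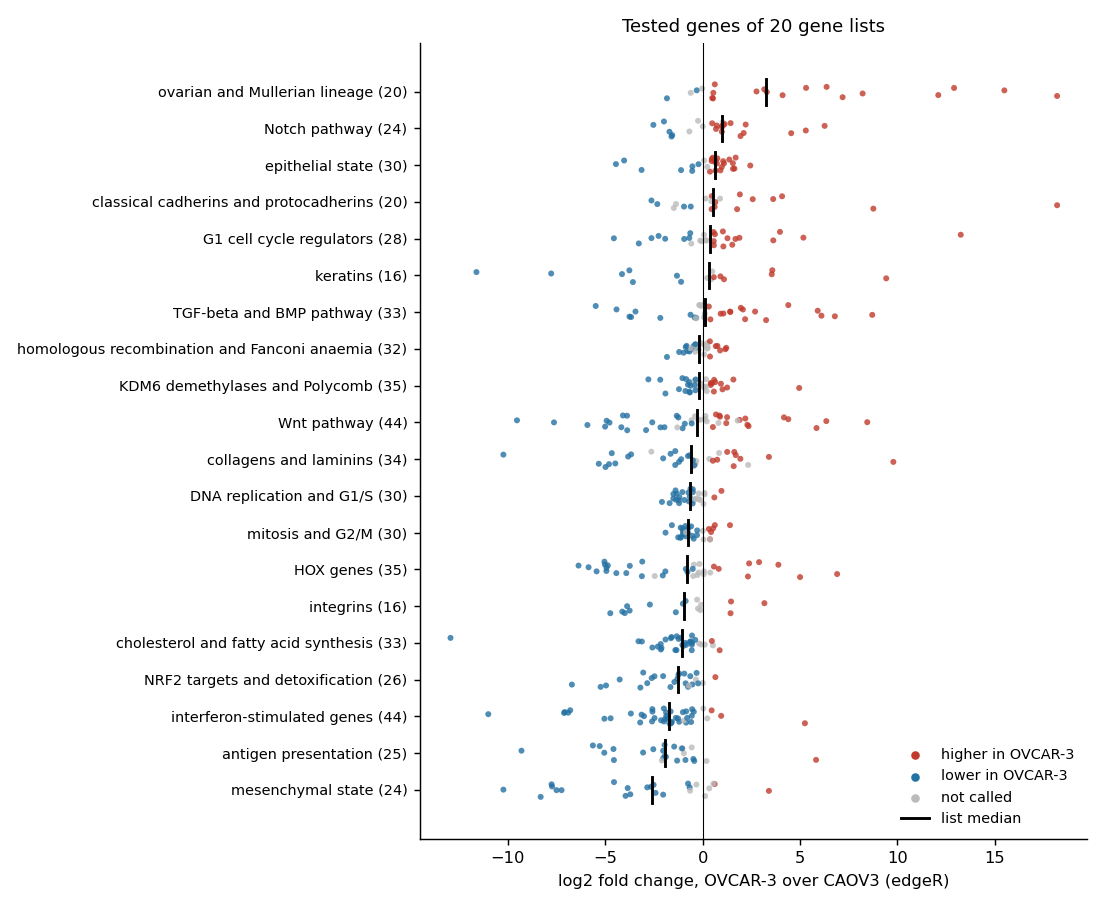
Log2 fold change (OVCAR-3 over CAOV3) of every tested gene, for 20 lists, 1 point per gene, coloured by the edgeR call, with the list's median as a bar and the number of tested genes in brackets. The interferon-stimulated, antigen presentation and mesenchymal lists lie mostly left of 0, and the ovarian and Müllerian list mostly right of it, with a median of 3.23.

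Interferon-stimulated genes were lower in OVCAR-3 in all but a few cases. Of 44 tested members, 38 were lower, 3 higher and 3 not called, with a median log2 fold change of -1.75. Type I interferons act through the factor complex ISGF3, which binds interferon-stimulated response elements with a repeated GAAA core. The promoters of 4 genes lower in OVCAR-3 are shown because each holds this core, GAAANNGAAA on either strand, marked in capitals. They are RefSeq sequence of GRCh38.p14, from 250 bases before to 50 after the gene's start, at chr19:17405581-17405880 (minus strand) for BST2, chr14:94110486-94110785 (plus) for IFI27, chr1:27672143-27672442 (minus) for IFI6 and chr11:313790-314089 (plus) for IFITM1.
BST2: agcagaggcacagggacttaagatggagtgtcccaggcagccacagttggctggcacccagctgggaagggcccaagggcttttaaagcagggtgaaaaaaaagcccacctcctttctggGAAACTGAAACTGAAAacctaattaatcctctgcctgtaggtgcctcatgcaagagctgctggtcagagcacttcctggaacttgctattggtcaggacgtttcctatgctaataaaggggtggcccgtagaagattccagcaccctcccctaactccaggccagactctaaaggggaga
IFI27: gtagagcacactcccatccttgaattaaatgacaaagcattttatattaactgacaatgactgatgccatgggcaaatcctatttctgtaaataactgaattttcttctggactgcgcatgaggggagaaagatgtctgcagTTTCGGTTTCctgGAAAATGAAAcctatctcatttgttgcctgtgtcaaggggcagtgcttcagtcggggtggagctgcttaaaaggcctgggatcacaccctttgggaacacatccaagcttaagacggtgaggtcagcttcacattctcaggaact
IFI6: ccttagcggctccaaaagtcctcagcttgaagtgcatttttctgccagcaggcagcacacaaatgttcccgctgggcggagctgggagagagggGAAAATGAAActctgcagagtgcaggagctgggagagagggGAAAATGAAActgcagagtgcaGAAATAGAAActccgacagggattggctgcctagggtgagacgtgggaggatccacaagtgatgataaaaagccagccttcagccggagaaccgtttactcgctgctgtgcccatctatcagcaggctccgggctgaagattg
IFITM1: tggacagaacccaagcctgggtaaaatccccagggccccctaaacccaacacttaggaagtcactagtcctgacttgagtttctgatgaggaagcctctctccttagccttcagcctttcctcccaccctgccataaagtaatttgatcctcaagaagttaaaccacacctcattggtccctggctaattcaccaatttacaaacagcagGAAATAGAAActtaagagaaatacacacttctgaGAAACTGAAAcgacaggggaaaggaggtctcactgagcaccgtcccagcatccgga
The core was found in 21 of the 34 promoters of the list that the table holds, 61.8%, against 3.57% of all 35116 promoters in it. This describes the letters of the list's promoters, which are interferon targets by definition, and says nothing of binding in either line.

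BST2, called tetherin because it holds budding virus at the cell surface, had 3.75, 3.11 and 4.83 CPM in OVCAR-3 and 533, 529 and 508 CPM in CAOV3 (log2 fold change -7.08, SE 0.15, adjusted p = 1.02e-07). IFI27, a mitochondrial interferon-induced protein, had 2.16, 2.09 and 4.17 CPM in OVCAR-3 and 320, 331 and 329 CPM in CAOV3 (-6.90). IFI6 had 12.7, 10.3 and 36.3 CPM in OVCAR-3 and 237, 209 and 211 CPM in CAOV3 (-3.68). All 3 genes were apart in every library, and OVCAR-3 replicate 3 was the highest of its line for each.

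IFITM1, which blocks viral entry, averaged 1.31 ± 1.15 CPM in OVCAR-3 and 176 ± 42.0 CPM in CAOV3 (SD, n = 3 each), with log2 fold changes of -7.44 in the first set and -5.39 in the second. XAF1, an apoptosis factor, had 0 counts in OVCAR-3, against 9.62, 8.24 and 9.62 CPM in CAOV3, at least 249-fold lower. The exceptions included MX2, an antiviral dynamin-like GTPase, at 7.83 ± 0.804 CPM in OVCAR-3 and 0.240 ± 0.264 CPM in CAOV3 (SD, n = 3 each). Summed over the list, OVCAR-3 libraries had 944, 914 and 1292 CPM and CAOV3 libraries 4763, 4329 and 4847 CPM. Without OVCAR-3 replicate 3 the counts were 37 lower and 3 higher.

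Antigen presentation genes had 19 of 25 lower and 1 higher, with a median log2 fold change of -1.94. NLRC5, the transactivator of MHC class I genes, had 1.35, 1.66 and 2.03 CPM in OVCAR-3 and 35.8, 35.6 and 47.1 CPM in CAOV3 (-4.55, SE 0.15, adjusted p = 3.54e-07). The peptide transporter TAP1 was at -3.06, the immunoproteasome subunit PSMB9 at -4.58 and the class I light chain B2M at -1.88. The member that was higher was HLA-C, at 163, 125 and 203 CPM in OVCAR-3 and 3.11, 2.85 and 2.48 CPM in CAOV3. Counts of the classical HLA genes are uncertain, since they are polymorphic and near-identical and reads of a line's own alleles may be missed or given to another gene. HLA-B did not pass the test, with 38.2, 31.3 and 43.2 CPM in OVCAR-3 and 27.4, 149 and 64.5 CPM in CAOV3, whose libraries disagreed.

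Of 24 tested cytokines and chemokines, 13 were lower in OVCAR-3 and 3 higher. IL6, the acute-phase cytokine, had 3 counts over the OVCAR-3 libraries and 10.3, 7.49 and 6.66 CPM in CAOV3, a ratio of 225 (counting interval 76.8 to 1096). TNFSF10, the death ligand TRAIL, averaged 5.58 ± 0.716 CPM in OVCAR-3 and 223 ± 49.3 CPM in CAOV3 (SD, n = 3 each). CXCL1 did not pass the test, at 7.98 ± 1.61 CPM in OVCAR-3 and 8.43 ± 1.54 CPM in CAOV3.

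Markers of other cell types were looked at beside these immune genes. Of 11 leukocyte markers 2 passed the filter on low counts, CD14 among them, and both were lower in OVCAR-3. CD14, the endotoxin co-receptor, had 1.03, 1.44 and 4.33 CPM in OVCAR-3 and 56.1, 59.3 and 117 CPM in CAOV3. The pan-leukocyte marker PTPRC did not pass the filter. Summed endothelial markers ran from 127 to 166 CPM in OVCAR-3 and from 38.9 to 39.9 CPM in CAOV3, summed granulosa and steroidogenic markers from 33.4 to 43.1 CPM and from 31.2 to 35.6 CPM, and summed fibroblast markers from 40.4 to 55.2 CPM and from 55.3 to 58.0 CPM. EGFL7 made up most of the endothelial sum, at 141 ± 19.6 CPM in OVCAR-3 and 30.9 ± 0.237 CPM in CAOV3 (SD, n = 3 each), while PECAM1 and CLDN5 were lower in OVCAR-3. Within the granulosa and steroidogenic sum AMH, at 10.2 ± 2.76 CPM in OVCAR-3 and 0.0435 ± 0.0754 CPM in CAOV3, and FOXL2 were higher, and CYP11A1, at 0.0118 ± 0.0204 and 13.8 ± 1.36 CPM, and INHA were lower (SD, n = 3 each). Their part in any result was not tested.

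Metallothionein genes were off or nearly off in OVCAR-3 and on in CAOV3. These small cysteine-rich proteins bind zinc, copper and cadmium, and the zinc-sensing factor MTF1 turns them on through metal response elements. Of 20 metallothionein names in the files, 16 lie on chromosome 16 and 11 passed the filter, and of these 10 were lower in OVCAR-3 and MT3 was not called. The summed level over the family was 23.9 to 37.0 CPM in OVCAR-3 and 4636 to 6802 CPM in CAOV3. The promoters of the 3 tested members that the RefSeq table holds are shown because all carry several copies of that element's core, TGCACNC or TGCGCNC on either strand, in capitals. They are GRCh38.p14 sequence on the plus strand at chr16:56608334-56608633 for MT2A, chr16:56669564-56669863 for MT1H and chr16:56682220-56682519 for MT1X.
MT2A: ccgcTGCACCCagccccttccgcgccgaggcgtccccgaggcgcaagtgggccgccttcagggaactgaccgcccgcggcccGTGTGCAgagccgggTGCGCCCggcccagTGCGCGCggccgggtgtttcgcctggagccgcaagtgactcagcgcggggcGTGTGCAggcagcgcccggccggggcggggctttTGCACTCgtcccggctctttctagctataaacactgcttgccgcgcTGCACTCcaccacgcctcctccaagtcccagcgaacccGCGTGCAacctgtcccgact
MT1H: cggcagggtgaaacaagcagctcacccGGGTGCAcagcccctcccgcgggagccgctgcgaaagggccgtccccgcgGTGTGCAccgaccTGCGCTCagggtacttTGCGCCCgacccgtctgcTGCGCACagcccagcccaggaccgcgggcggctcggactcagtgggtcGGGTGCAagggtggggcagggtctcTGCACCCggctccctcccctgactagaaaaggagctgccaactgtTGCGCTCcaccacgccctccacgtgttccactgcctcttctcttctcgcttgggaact
MT1X: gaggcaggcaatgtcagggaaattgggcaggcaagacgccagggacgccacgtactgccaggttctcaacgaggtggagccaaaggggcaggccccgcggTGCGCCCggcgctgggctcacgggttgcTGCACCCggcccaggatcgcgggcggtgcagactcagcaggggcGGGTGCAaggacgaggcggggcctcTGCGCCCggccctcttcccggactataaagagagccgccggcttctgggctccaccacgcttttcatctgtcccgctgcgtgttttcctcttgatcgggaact
The matches number 8 in MT2A, 8 in MT1H and 4 in MT1X, counting overlapping matches. At least 1 match was found in 29.6% of all promoters of the table and at least 3 in 2.30%.

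MT2A had 28.3, 25.9 and 15.5 CPM in OVCAR-3 and 3698, 3722 and 2276 CPM in CAOV3 (log2 fold change -7.13, SE 0.10, adjusted p = 4.23e-08). MT1E had 0 counts in OVCAR-3, against 1106, 1508 and 1031 CPM in CAOV3, at least 33939-fold lower. MT1H had 0 counts in OVCAR-3, against 81.5, 112 and 114 CPM in CAOV3, at least 2789-fold lower. The low state was not uniform over the cluster. MT2A had 1919 counts over the OVCAR-3 libraries compared here and 165122 over all 10 of the series, GSK-J4 included. For MT1F these counts were 598 and 16423, while MT1E had 0 throughout.

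MT1F kept 7.26 ± 1.49 CPM in OVCAR-3, against 153 ± 26.7 CPM in CAOV3 (SD, n = 3 each), and MT1X had 0.319, 0.506 and 1.23 CPM in OVCAR-3 and 10.7, 10.2 and 3.05 CPM in CAOV3. The family's coding sequences are near copies, and the handling of multiply mapped reads is unknown from the labels, so the division between members is uncertain while the sum is less so. SKOV3 was like OVCAR-3 in having 0 counts of MT1G and MT1H, but it held 274 CPM of MT2A.

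Genes of oxidative defence leaned the same way. Of 26 tested NRF2 targets and detoxification genes, 22 were lower in OVCAR-3 and 1 higher, with a median log2 fold change of -1.27. NQO1, the quinone reductase that is the standard NRF2 readout, had 84.1, 85.0 and 86.0 CPM in OVCAR-3 and 518, 452 and 446 CPM in CAOV3 (-2.47, SE 0.09, adjusted p = 4.26e-07). PGD, an enzyme of the pentose phosphate pathway, was the member that was higher (0.66). Over the list, summed CPM was 2608, 2492 and 2496 in OVCAR-3 and 5337, 5030 and 5242 in CAOV3.

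Efflux pumps were mostly lower in OVCAR-3 too. Of 24 tested ABC transporters, 14 were lower in OVCAR-3 and 4 higher. ABCC3, a conjugate exporter, averaged 2.43 ± 1.94 CPM in OVCAR-3 and 232 ± 11.3 CPM in CAOV3 (SD, n = 3 each). ABCG2, the breast cancer resistance protein, had a log2 fold change of -5.37, and ABCB1, the multidrug pump, had 3 counts over the OVCAR-3 libraries, against 4.23, 3.12 and 3.13 CPM in CAOV3. ABCA1, which exports cholesterol, was higher at 17.1 ± 2.61 CPM in OVCAR-3 and 1.15 ± 0.497 CPM in CAOV3 (log2 fold change 3.90). ALDH1A1, a retinal dehydrogenase used as a stem-like marker, was also higher, at 103, 110 and 23.2 CPM in OVCAR-3 and 0, 0.180 and 0.131 CPM in CAOV3, while 12 of 26 genes in its list were lower and 5 higher.

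Most transcripts of sterol and fatty acid synthesis were lower in OVCAR-3. Of 33 tested genes 27 were lower and 2 higher, with a median log2 fold change of -1.04 (26 and 4 without OVCAR-3 replicate 3). IDI1, an isoprenoid isomerase, had 35.5, 31.9 and 9.42 CPM in OVCAR-3 and 220, 206 and 253 CPM in CAOV3 (-3.29). In OVCAR-3 the second-set library was the lowest for IDI1, as it was for SCD.

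SCD, the stearoyl-CoA desaturase, had 756, 880 and 283 CPM in OVCAR-3 and 2388, 2548 and 2778 CPM in CAOV3 (-2.14). The fatty acid synthase FASN was at -1.23. HMGCS1, the first committed enzyme of sterol synthesis, did not pass the test: it had 198, 210 and 89.8 CPM in OVCAR-3 and 162, 169 and 160 CPM in CAOV3. ELOVL6, FDPS and ACSS2 did not pass it either. TM7SF2, a late sterol reductase, was higher (0.88), and so was SREBF1 (0.48). Summed over the list, the OVCAR-3 libraries had 5869, 5986 and 3574 CPM and the CAOV3 libraries 13016, 12767 and 13458 CPM. Serum and medium moved with the line, so line and culture cannot be told apart here.

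**Figure D3:**
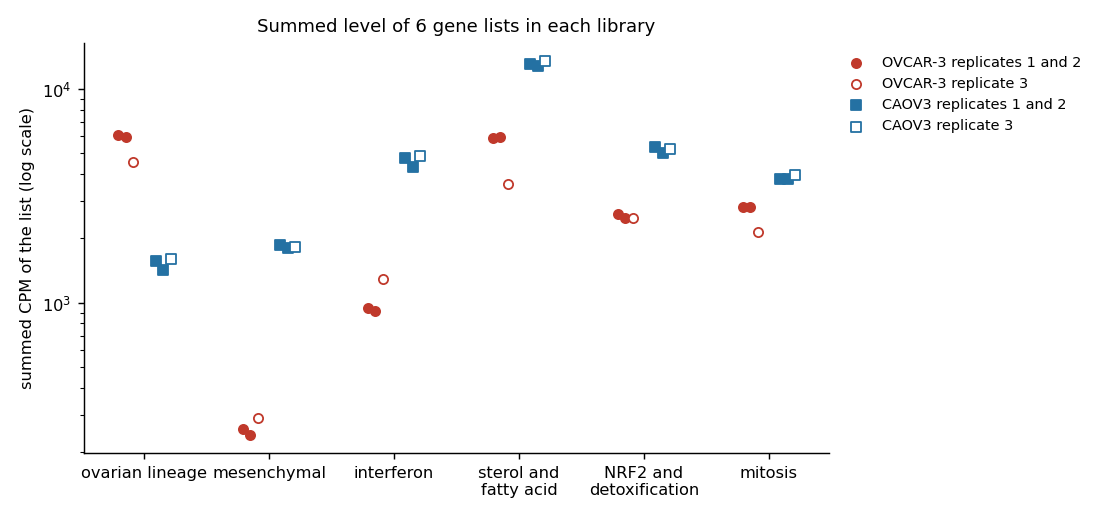
Summed CPM of 6 gene lists on a log axis in each of the 6 libraries, OVCAR-3 left of CAOV3, with open symbols for replicate 3. The mesenchymal, interferon, sterol and fatty acid, NRF2 and mitosis sums lie lower in every OVCAR-3 library, and the ovarian and Müllerian sum lies higher.

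Carbon metabolism was divided gene by gene: of 34 glycolysis and hypoxia genes, 11 were higher and 13 lower. The neuronal-type glucose transporter SLC2A3 had 0 counts in OVCAR-3, against 528, 477 and 709 CPM in CAOV3, at least 15208-fold lower, while the general transporter SLC2A1 was at -1.25. GAPDH had 2280, 2318 and 2938 CPM in OVCAR-3 and 7557, 7128 and 7255 CPM in CAOV3 (-1.55, SE 0.10, adjusted p = 8.45e-06). ENO1, a later enzyme of the same pathway, had 4319, 4154 and 5127 CPM in OVCAR-3 and 990, 965 and 1046 CPM in CAOV3 (2.17, SE 0.09). These enzymes of the same pathway were thus apart in opposite directions, and GAPDH and ACTB (-1.12), both common loading controls, differed between these lines.

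PCK1, the gluconeogenic carboxykinase, had 18.3, 21.2 and 22.4 CPM in OVCAR-3 and 0 counts in CAOV3. EPAS1, the hypoxia factor HIF-2 alpha, averaged 15.9 ± 4.77 CPM in OVCAR-3 and 432 ± 27.2 CPM in CAOV3 (SD, n = 3 each). Of 29 amino acid and one-carbon genes, 10 were higher and 7 lower (58.6% called, against 65.0% of all tested genes). BCAT1, a branched-chain aminotransferase, was among the higher ones at a log2 fold change of 2.72. Of the 13 protein-coding genes of the mitochondrial genome, 6 were lower and 7 not called (46.2% called), with a median of -0.64.

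Regulators of the cell cycle's G1 phase differed in both directions, some as on and off states. The retinoblastoma gene RB1, which restrains E2F, had 40.96, 43.99 and 46.5 CPM in OVCAR-3 and 0 counts in CAOV3, at least 1263-fold higher (adjusted p = 1.71e-06). SKOV3 held 143 CPM. Cyclin D3, CCND3, had 46.1, 41.4 and 27.3 CPM in OVCAR-3 and 936, 889 and 823 CPM in CAOV3 (log2 fold change -4.56, SE 0.14), and cyclin D1, CCND1, was at -2.26. CDKN2A, encoding p16 and p14ARF, was high in both lines, at 492, 411 and 438 CPM in OVCAR-3 and 226, 213 and 201 CPM in CAOV3 (1.07, adjusted p = 2.92e-05), and was listed at 0 in SKOV3. CDKN1A, the p21 inhibitor of cyclin-dependent kinases, had 12.2, 11.7 and 13.9 CPM in OVCAR-3 and 89.9, 76.1 and 67.9 CPM in CAOV3 (-2.63, adjusted p = 3.16e-06). Over the list of G1 regulators, 14 of 28 were higher and 8 lower.

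Cyclin E1, CCNE1, which drives entry into S phase, had 140, 144 and 86.6 CPM in OVCAR-3 and 34.2, 32.3 and 31.1 CPM in CAOV3 (1.89, SE 0.14, adjusted p = 1.22e-05). Of 7 tested genes of 19q12, CCNE1 included, 5 were higher and 2 lower. C19orf12 was at 3.66, the prefoldin-like URI1 at 2.60, the ribonuclease P subunit POP4 at 2.47 and PLEKHF1 at 1.86. UQCRFS1, a subunit of respiratory complex III, was at -0.94 and TSHZ3 at -5.23, so the higher genes did not extend over the whole list. Of 9 genes of 9p21, CDKN2A included, 7 were higher and 2 not called, among them MTAP at 1.11 and CDKN2B at 1.28.

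Proliferation genes were mostly lower in OVCAR-3. In the mitosis list 20 of 30 were lower and 6 higher, with a median of -0.74, and 9 were higher without OVCAR-3 replicate 3. In the replication list 20 of 30 were lower and 2 higher, with a median of -0.64. MKI67, the proliferation marker, had 181, 191 and 147 CPM in OVCAR-3 and 306, 330 and 317 CPM in CAOV3 (-0.88, SE 0.09, adjusted p = 9.18e-05). CDC20, an activator of the anaphase-promoting complex, was at -1.90 and the replication clamp PCNA at -1.69.

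BUB1B, a spindle checkpoint kinase, went the other way at 1.41, as did the replicative helicase subunit MCM2 at 0.61. Homologous recombination and Fanconi anaemia genes were divided, with 12 of 32 lower and 7 higher (59.4% called, against 65.0% of all tested genes). BRCA1 did not pass the test, at 26.7 ± 1.44 CPM in OVCAR-3 and 24.4 ± 2.65 CPM in CAOV3 (SD, n = 3 each; adjusted p = 0.373). BRCA2 was at -1.20 and FANCI at -1.83. Without OVCAR-3 replicate 3 that list gave 10 lower and 8 higher.

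Notch signalling genes were mostly higher in OVCAR-3, with 15 of 24 tested genes higher and 5 lower and a median of 0.99. The ligand JAG1 had 263, 276 and 423 CPM in OVCAR-3 and 3.24, 4.70 and 4.14 CPM in CAOV3 (log2 fold change 6.27, SE 0.19, adjusted p = 2.09e-07). Its paralog JAG2 was lower (-1.98). The receptors NOTCH1, NOTCH2 and NOTCH3 were at 2.11, 1.44 and 1.00, LFNG, a glycosyltransferase that modifies the receptors, at 4.55, and the target HEY2 at 5.30. The other lower members were DLK2, HEYL, MAML2 and MFNG.

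In the TGF-beta and BMP group 16 of 33 were higher and 9 lower. BMP7, a ligand of kidney and Müllerian development, had 1979, 1922 and 867 CPM in OVCAR-3 and 14.02, 12.94 and 13.7 CPM in CAOV3 (6.79, SE 0.27, adjusted p = 7.22e-07). The BMP antagonist noggin, NOG, was also higher, at 5.91. Ligands were split between the lines: TGFB2 was at 3.26 and TGFB1 at -3.45, and BMP4 at -3.67.

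For the Wnt pathway, 15 of 44 genes were higher and 19 lower. The R-spondin receptors were split, with LGR4 and LGR5 higher and LGR6 lower. LGR4 was at 541 ± 19.1 CPM in OVCAR-3 and 25.9 ± 4.85 CPM in CAOV3 and LGR5 at 21.3 ± 4.91 and 0.0586 ± 0.0674 CPM (SD, n = 3 each). LGR6 had 0.319, 0.542 and 0 CPM in OVCAR-3 and 13.1, 15.9 and 27.0 CPM in CAOV3 (log2 fold change -5.92, adjusted p = 0.000115). The secreted inhibitors DKK1 and SFRP1 were lower. DKK1 had 0.212, 0.361 and 0.460 CPM in OVCAR-3 and 259, 267 and 243 CPM in CAOV3 (-9.53, SE 0.18), SFRP1 was at -4.17, and the ligand WNT3A was at -7.63.

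Growth factor receptors were split as well, with 8 of 15 ERBB and EGF family genes higher and 6 lower, and 6 of 12 FGF family genes higher and 5 lower. ERBB4 had 59.3, 62.6 and 61.1 CPM in OVCAR-3 and 0.959, 1.08 and 0.696 CPM in CAOV3 (6.04), whereas EGFR was at -1.44 and ERBB2 at 0.45. FGFR1 was at 2.79 and the ligand FGF18 at 4.08. Among steroid receptors and targets 8 of 18 were higher and 6 lower. The glucocorticoid receptor NR3C1 averaged 23.1 ± 6.66 CPM in OVCAR-3 and 286 ± 32.2 CPM in CAOV3 (SD, n = 3 each), and the oestrogen receptor ESR1 was low in both, at 0.687 ± 0.300 and 2.33 ± 0.229 CPM.

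The enzymes that GSK-J4 is aimed at were present in both control states. KDM6A had 25.5, 26.7 and 26.5 CPM in OVCAR-3 and 27.5, 22.9 and 25.3 CPM in CAOV3 and did not pass the test (log2 fold change 0.06, adjusted p = 0.706). KDM6B had 109, 113 and 119 CPM in OVCAR-3 and 56.0, 50.3 and 61.5 CPM in CAOV3 (1.02, SE 0.09, adjusted p = 2.69e-05). On the writing side, the core Polycomb genes EZH2, EED and SUZ12 were lower in OVCAR-3, at -0.68, -1.03 and -0.36. EZH1 went the other way, at 13.3 ± 3.18 CPM in OVCAR-3 and 8.72 ± 1.63 CPM in CAOV3 (SD, n = 3 each, log2 fold change 0.58, adjusted p = 0.0498). The largest differences each way in the list of KDM6 and Polycomb genes were in other members. CBX2, a reader of the mark, was at 4.96 and PHF19, which recruits the complex, at -2.78. In all, 11 of 35 were higher and 15 lower.

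HOX genes, textbook Polycomb targets that encode body-axis position, had 18 of 35 lower and 8 higher, with a median of -0.78. HOXA5 had 82.5, 82.0 and 91.7 CPM in OVCAR-3 and 7.04, 4.40 and 5.79 CPM in CAOV3 (3.89). HOXC10, HOXC9 and HOXD9 were at -4.93, -5.44 and -5.04. HOXD13 had 150 counts over the OVCAR-3 libraries and 1 count over the CAOV3 libraries.

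Imprinted genes, expressed from 1 parental copy, included several that were off in a line. NDN had 0 counts in OVCAR-3, against 30.4, 28.2 and 24.9 CPM in CAOV3, and the long RNA MEG3 had 0 counts in OVCAR-3, against 6.58, 10.5 and 9.62 CPM. The retrotransposon-derived PEG10 was at -3.57. H19, a long RNA, went the other way, with 9.28, 10.1 and 40.98 CPM in OVCAR-3 and 1 count over the CAOV3 libraries. Of 23 tested, 10 were higher and 7 lower. Among cancer-testis antigens 9 of 40 passed the filter, with 5 higher and 2 lower. CT45A1 had 0 counts in OVCAR-3, against 25.1, 25.1 and 28.6 CPM in CAOV3, though the division of counts among CT45A genes is uncertain. PRAME did not pass, at 96.0 ± 11.4 CPM in OVCAR-3 and 89.7 ± 22.9 CPM in CAOV3 (SD, n = 3 each).

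Several of the switched genes were neighbours. Along the tested genes in order of position, the longest stretch at 0 counts in CAOV3 held 14 genes on chromosome 4, from MAP9 to RAPGEF2 (GRCh38, chr4:155342658-159360174, 4.02 Mb). These genes had 0 counts in all 6 CAOV3 libraries of the series, GSK-J4 included, and 29808 counts over the 3 OVCAR-3 libraries, at 1.23 to 80.3 CPM. The flanking tested genes were expressed in both lines, LRAT at 3.90 CPM in OVCAR-3 and 1.96 CPM in CAOV3 and NAF1 at 20.6 and 14.2 CPM. The stretch holds the soluble guanylate cyclase subunits GUCY1A1 and GUCY1B1, the growth factor PDGFC and the electron carrier ETFDH.

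A second stretch held 11 genes on chromosome 3, from LPP-AS2 to MB21D2 (chr3:188151206-192918161, 4.77 Mb), again with 0 counts in all 6 CAOV3 libraries and 27842 counts in OVCAR-3. CLDN1, described above, lies in it, as do CLDN16, LPP, TP63, IL1RAP and FGF12. The flanking genes were BCL6, at 35.6 CPM in OVCAR-3 and 24.5 CPM in CAOV3, and PLAAT1, at 10.3 and 8.61 CPM. The third held 8 genes on chromosome 19, all of them zinc finger genes or transcripts beside one, from ZNF582 to ZNF470 (chr19:56375846-56588911, 0.213 Mb), with 3884 counts in OVCAR-3. Its flanking genes were themselves near 0 in CAOV3, ZNF542P at 1.09 CPM in OVCAR-3 and 0.0580 CPM in CAOV3 and ZNF71 at 18.9 and 0.0435 CPM. All genes of the 3 stretches had counts in SKOV3. The longest such stretch in OVCAR-3 held 5 CT45A genes on chromosome X, with 6 counts over all 10 OVCAR-3 libraries. These 5 belong to a single gene family, and the handling of multiply mapped reads is unknown. The division of counts between them is therefore uncertain. These stretches were picked after their values were seen and are given as a description.

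**Figure D4:**
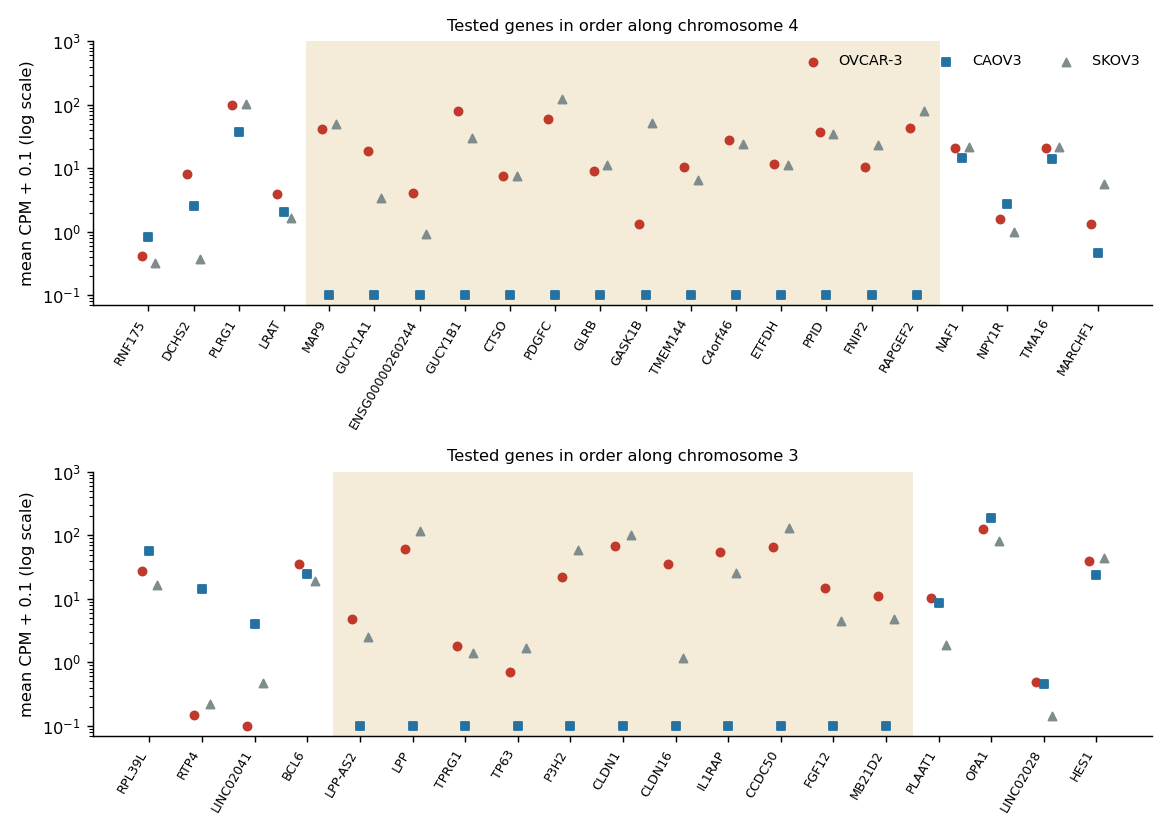
Mean CPM + 0.1 on a log axis of tested genes in order along chromosomes 4 and 3, for OVCAR-3, CAOV3 and, for comparison, SKOV3 (3 libraries each), with the stretches shaded. CAOV3 is at 0 counts over 14 genes in a row on chromosome 4 and over 11 on chromosome 3, with expressed genes on either side.

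Single genes were also at or near 0 in CAOV3. STK11, the LKB1 kinase that activates AMPK, had 114, 104 and 91.8 CPM in OVCAR-3 and 0 counts in all 6 CAOV3 libraries, at least 2987-fold higher, and its neighbours SBNO2 and CBARP were at 62.7 and 6.58 CPM in OVCAR-3 and 3.71 and 2.19 CPM in CAOV3. GLB1, the lysosomal beta-galactosidase, had 111, 114 and 119 CPM in OVCAR-3 and 0 counts in all 6 CAOV3 libraries. EP300, a histone acetyltransferase, was near 0 in CAOV3 but not at 0, with 11 counts over its 3 libraries, and averaged 93.3 ± 10.3 CPM in OVCAR-3 and 0.114 ± 0.162 CPM in CAOV3 (SD, n = 3 each). In all, 86 tested genes had 0 counts in the 3 CAOV3 libraries and at least 5 CPM in OVCAR-3, and 73 of them were at 0 in every CAOV3 library. In the other direction there were 60 such genes with 0 counts in OVCAR-3, of which 27 were at 0 in every OVCAR-3 library. DNA copy number was not analysed here.

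Beyond the stretches at 0, whole neighbourhoods leaned to a line. In windows of 25 tested genes, the middle 90% of the 16304 window medians lay between -1.03 and 1.14. The highest lay on chromosome 4 over the first stretch (median 9.81), followed by chr19:39314651-40090938 with 23 of 25 genes higher (3.03), chr11:76186325-78175323 with 23 higher (2.88) and chr12:22448583-27695564 with 21 higher (2.65). The window on chromosome 19 holds RPS16, DLL3 and the transcription elongation factor PAF1, and that on chromosome 12 holds BCAT1, with the log2 fold change of 2.72 given above. The genes of a window share position, and their functions were not compared.

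The lowest windows were chr22:15823197-18994628 (median -2.51), chr12:6965327-8795789, which holds SLC2A3 (-2.32), and chr5:141155996-141512981, a protocadherin cluster (-2.15). By chromosome, 54.0% of tested genes were higher in OVCAR-3 on chromosome 9 and 59.0% on chromosome 21, while 62.9% were lower on chromosome 22, against 31.2% higher and 33.8% lower over all tested genes. The median log2 fold changes of these chromosomes were 0.75, 0.87 and -0.94.

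**Figure D5:**
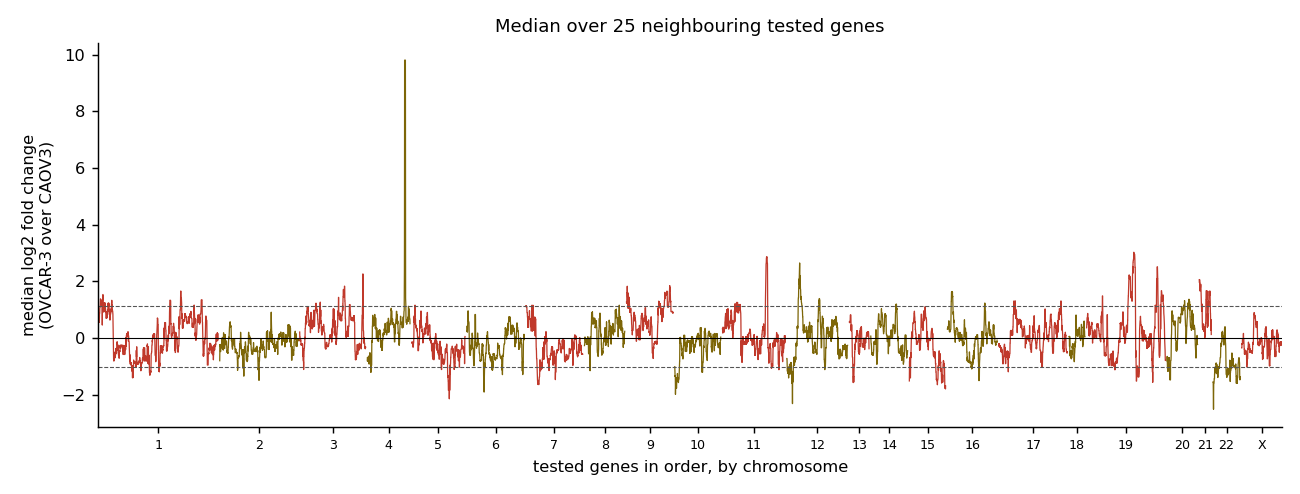
Median log2 fold change (OVCAR-3 over CAOV3) in sliding windows of 25 tested genes, by order along each chromosome, with the 5th and 95th percentiles of all windows as dashed lines. Peaks stand on chromosomes 4, 11, 12 and 19, and chromosome 22 lies below 0 over most of its length, with a lowest window of -2.51.

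Promoters of switched genes had a lower median CpG ratio than the rest, while the GC content of those on in CAOV3 alone was close to that of genes not called. Over 300 bases around the start, the median ratio of observed to expected CpG was 0.64 for the 142 genes on in OVCAR-3 alone and 0.72 for the 168 on in CAOV3 alone that the RefSeq table holds. It was 0.84 for 7531 other called genes and 0.83 for 3404 genes not called. The median GC content was 60.7% for the genes on in OVCAR-3 alone and 64.5% for those on in CAOV3 alone, against 65.7% for the other called genes and 64.7% for those not called. The letters TATAAA on either strand were found in 8.45% and 9.52% of the switched promoters, against 3.73% of the other called, 3.85% of those not called and 7.33% of all promoters in the table. These are descriptions of the sequence with no test.

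Most differences between the lines were also present under the inhibitor. In the GSK-J4 libraries of 72 h, which this comparison did not use, 9721 of the 10980 called genes had the same direction of difference in mean level (88.5%). The share was 6424 of 6703 among genes over 2-fold (95.8%) and 2222 of 2249 among genes over 8-fold (98.8%).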

How the data were processed

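The deposited tables hold whole-number read counts per gene. STAR, DESeq2 and the build GRCh38 are listed in the submitters' processing notes. What counted the reads, with which annotation and whether by strand, was not given in the sources. The 3 tables were joined on 58825 gene IDs. Names came from a gene name table for 58472 IDs and from GENCODE 29 for 345, and 8 IDs had none. Positions came from GENCODE.

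From these counts, edgeR 4.0.16 in R 4.3.3 (limma 3.58.1) was run on the 6 libraries with TMM scaling, filterByExpr at a minimum count of 10, robust glmQLFit and glmQLFTest, and line plus library set as terms. Benjamini-Hochberg adjustment ran over all 16897 tested genes, with a threshold of 0.05 on the adjusted p. DESeq2 1.42.0 and other fits served as alternatives. SE is the log2 fold change over the root of the F statistic and is approximate. Since the labels name no separate cultures, a p-value here covers the spread between libraries alone, which may be technical. Intervals (95%) and floors cover counting error only. The members, gene lists and tests were chosen with earlier results of these data known. Of 1116 list members in 42 lists, 1113 matched a name. The text names the 12 highest and 12 lowest fold changes among called genes with at least 20 CPM in the higher line, up to 2 genes each way per list, the 6 largest CPM differences each way, and a few fixed lineage and chromatin genes. Other list genes, the stretches of neighbours at 0 counts and the genes STK11, GLB1 and EP300 as single cases were picked after their values were seen. The fitting code was tested on simulated data.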

Additional observations from a re-analysis of the deposited data

Results flagged for a closer look

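The difference between the library sets was not the same in both lines. An interaction term of line and set in edgeR passed an adjusted p under 0.05 for 1018 of 16897 tested genes, 700 of them called between the lines. The second set has 1 library per line, so the term rests on OVCAR-3 replicate 3 and CAOV3 replicate 3. WT1 was among them (adjusted p = 0.0457), with a log2 difference of OVCAR-3 over CAOV3 of 8.72 in the first set and 7.01 in the second. SPON1 was another (adjusted p = 0.00594), at 2.71 in the first set and 1.63 in the second. Both kept their direction in each set.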

How the results depend on the processing

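The counts of 5266 genes higher and 5714 lower stayed within 1.5 times in every alternative except the test against a 2-fold threshold, which gave 2259 higher and 2569 lower. With libraries left out, genes higher ranged from 3553 to 6040 and genes lower from 4114 to 6033. Replicate numbers did not pair the libraries (correlations of deviations -0.0166, 0.0387 and 0.0460), and a replicate block gave 4789 higher and 5229 lower. Among the 20 alternatives, replicates 1 and 2 alone and the fit without replicate 3 of both lines are the same fit under 2 names. Of 197 named genes, 156 kept direction and call in all 20 alternatives and 39 lost the call in at least 1, MSLN, CDH2 and SREBF1 among them. The others, KDM6A and HACD4, were not called and changed sign: with libraries left out the KDM6A log2 fold change ranged from -0.0236 to 0.14 and the HACD4 log2 fold change from -0.26 to 0.21, and HACD4 was 0.21 in replicates 1 and 2 alone and 0.010 in 12 libraries of both lines. The highest window median of 9.81 became 11.4 in windows of 15 genes and 2.81 in windows of 41, and the lowest, -2.51, became -6.16 and -1.99. In the GSK-J4 libraries of 72 h the median log2 ratio of the lines in the main direction was 1.16, and 1.31 or 0.93 with a prior of 0.1 or 2 CPM. Of 168 list counts, 160 stayed within 1.5 times without OVCAR-3 replicate 3 or in replicates 1 and 2 alone, 2 fits added after seeing the data. Where values moved, the cause was not tested.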

Other observations

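Secreted peptidases of the kallikrein cluster and the calcium-binding S100 proteins were called in both directions. Over all tested genes 33.8% were lower in OVCAR-3 and 31.2% higher. Of 9 tested kallikrein-related peptidases, 4 were lower in OVCAR-3 and 1 was higher. KLK5 and KLK7, skin-type proteases reported at high levels in ovarian tumours, had log2 fold changes of -0.98 and -1.69, KLK8 was at 2.18, and KLK6 and KLK10 did not pass the test. KLK5 had 171, 162 and 154 CPM in OVCAR-3 and 357, 274 and 326 CPM in CAOV3. All 3 libraries of each line were on their own side for KLK5, KLK7 and KLK8, as they were for most tested genes.

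Of 21 tested S100 and annexin genes, 10 were lower and 6 higher. S100A6 averaged 426 ± 99.2 CPM in OVCAR-3 and 1792 ± 317 CPM in CAOV3 (SD, n = 3 each), and S100A14 and S100A16 were at -2.89 and -1.73. ANXA8 had 0 counts in OVCAR-3 and 46.3 ± 4.60 CPM in CAOV3, a gene with near-identical copies whose counts may be shared among them. The membrane-binding annexins ANXA1 and ANXA2 were higher, at 2.30 and 1.11, so the family did not move as a whole. MFAP5, a microfibril protein of the matrix chosen after its values were seen, had 0.248, 0.144 and 0.345 CPM in OVCAR-3 and 834, 856 and 1073 CPM in CAOV3.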
